A study of Mus musculus with 8 samples.

Results

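The livers of 2 LPfl/+ mice, in which Alb-Cre deletes 1 of the 2 Trp53 alleles, were compared with the livers of 3 LP+/+ control mice. These are 5 of the 8 livers of the series, chosen by the sample titles, and the remaining 3 come from LP245/+ mice, which carry Trp53wm-R245W/+ with Alb-CreTG and enter the estimate of the spread between animals, with a few of their values given beside those of the 5. All mice were males on a high-fat diet deficient in choline (HFCD) for 3 months from day 21 of age, a diet that loads the liver with lipid. The LPfl/+ livers are labelled Alb-CreTG with Trp53fl/+. None of the controls carries the recombinase by its label, whereas the study defines LP+/+ with Alb-Cre, and its methods allow for controls with or without it. LP+/+ replicates 1 and 2 are Alb-Cre0 with Trp53fl/+, so they hold the same floxed allele unrecombined, and LP+/+ replicate 3 is Alb-Cre0 with Trp53wm-R245W/+, an allele that expresses wild-type p53 without Cre. The comparison therefore pairs loss of an allele with presence of Cre, and their contributions cannot be told apart. Alb-Cre is driven by albumin regulatory sequence and recombines in hepatocytes and cholangiocytes, so Kupffer cells, endothelium, stellate cells and lymphocytes keep both Trp53 alleles.

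p53, the product of Trp53, is a transcription factor that is kept scarce by the ubiquitin ligase MDM2 and is stabilized by DNA damage, oncogene activity and metabolic stress. Its targets halt the cell cycle, repair DNA, trigger apoptosis and adjust glutamine, proline and lipid metabolism. It also lowers the expression of many genes of the G2 and M phases indirectly, since its target p21 keeps the repressive DREAM complex assembled on their promoters. In liver, p53 is known for its part in the response to lipid overload and in suppression of tumours.

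The libraries held between 26345208 and 31370714 counts in the 5 livers, so that a gene at the floor of 3 counts makes up at most 1.14e-05% of a library. The library numbers form a pair of series, and both LPfl/+ livers share theirs with LP+/+ 1 only, while LP+/+ 2 and 3 were numbered with the LP245/+ livers. The first principal component, 31.1% of the variance over the 8 livers, separated the series. A few genes were present in one series and nearly absent in the other. Serpina3c, a serine protease inhibitor gene, had 1947, 1603 and 2008 counts in LP+/+ 1, LPfl/+ 1 and LPfl/+ 2, and at most 12 in any other liver, and Myom2, a sarcomere protein gene, had 635, 268 and 281 counts against at most 1. With the pseudogenes Gm10704 and Gm8893, 4 of 16496 genes were at least 10-fold higher in all 3 livers of that series than in all 5 of the other, and 1, Gm43305, was at least 10-fold lower. What the series stands for is not given in the labels, and its part in the results was not tested. Many of the lists below are therefore given against LP+/+ 1, from the same series, and against LP+/+ 2 and 3, from the other.

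Expression was tested with edgeR's quasi-likelihood test for 16496 genes, and a gene counted as past the cutoff when its log2 fold change was 1 or more in either direction and its Benjamini-Hochberg adjusted p was at most 0.05. No gene passed it, and the smallest adjusted p was 0.697. At an unadjusted p below 0.05, 696 genes were higher in LPfl/+ (4.22% of those tested) and 441 were lower (2.67%), which makes 1137 either way (6.89%). In simulated counts with the same group sizes, 100 of 100 genes changed 4-fold passed the cutoff, and 44 of 100 genes changed 2-fold did. The simulation gave every gene the same spread, held no difference between the series and changed only genes with a mean count of at least 50. It therefore does not show which changes could be found in these livers. DESeq2, the tool named in the methods of the study, placed 9 genes past the cutoff (0.0581% of those with an adjusted p), and with the library series as a covariate edgeR placed 3 (0.0182%), Moxd1, Sqle and Abcd2. Without LP+/+ 1, 59 genes passed, 35 higher and 24 lower, and in 45 of them LP+/+ 1 lay among or beyond the LPfl/+ livers. The verbs used below are accordingly restrained: "higher" and "lower" describe values, single genes carry the standard error of the edgeR fit, and a p below 0.05 in a count of genes is unadjusted. In the edgeR fit of all 8 livers every gene named below had an adjusted p of 0.697 or more, and a gene that passed by another tool or with a liver left out is said to have done so where it is described. The p-values measure the spread between these animals, and a permutation of 2 livers against 3 cannot give a p below 0.1.

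**Figure D1:**
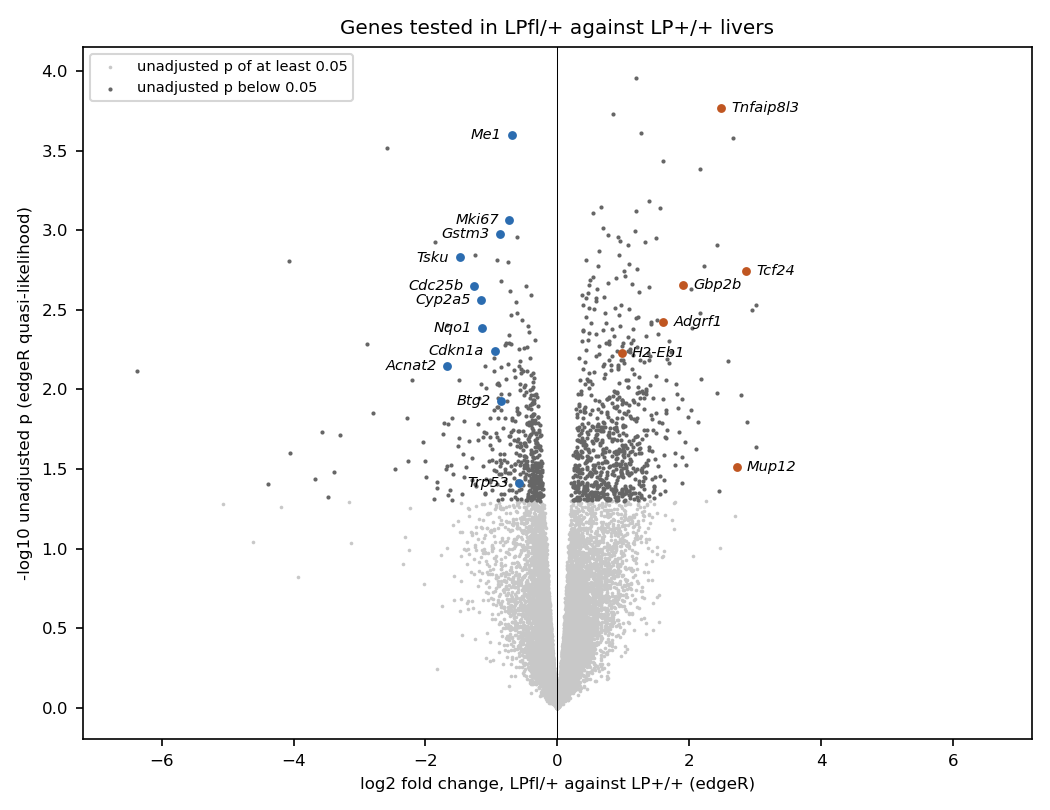
Log2 fold change of LPfl/+ against LP+/+ (x axis) and -log10 of the unadjusted p of edgeR (y axis) for the 16496 genes tested, with some genes named in the text in orange (higher) and blue (lower). No point reaches an adjusted p of 0.05, and Me1, Mki67, Cdkn1a and Btg2 lie on the lower side.

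Trp53 itself (chr11:69580359-69591873, + strand, GRCm38) was at its lowest in the LPfl/+ livers. Its normalized read counts, which are counts divided by DESeq2's size factors, were 226, 258 and 202 in LP+/+ 1 to 3, and 127 and 178 in LPfl/+ 1 and 2. The groups did not overlap, and the LPfl/+ mean was 66.5% of the LP+/+ mean (log2 fold change -0.58, standard error 0.24, adjusted p = 0.718 by edgeR). The difference was -0.58 against LP+/+ 1 and -0.59 against LP+/+ 2 and 3. The remaining transcript includes that of cells outside the reach of Alb-Cre, and fewer cells of a type cannot be told apart from less RNA per cell in whole liver.

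Cdkn1a, which encodes the cell cycle inhibitor p21 and is the most widely used readout of p53 activity, had normalized read counts of 188, 138 and 184 in LP+/+ and of 75.0 and 99.97 in LPfl/+. Both LPfl/+ livers were below the lowest control, at 51.4% of the LP+/+ mean (log2 fold change -0.95, standard error 0.27, adjusted p = 0.697 by edgeR), with -1.10 against LP+/+ 1 and -0.86 against LP+/+ 2 and 3. Btg2, an antiproliferative target of p53, had 337, 374 and 187 in LP+/+ and 145 and 185 in LPfl/+. Its LPfl/+ livers were below all controls, but LPfl/+ 2 was close to LP+/+ 3 (log2 fold change -0.85, standard error 0.28). Aen, a p53-induced nuclease of apoptosis, had 365, 424 and 385 in LP+/+ and 288 and 330 in LPfl/+, again without overlap and with a smaller difference (log2 fold change -0.33, standard error 0.13).

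The other p53 targets with an unadjusted p below 0.05 were of metabolism, apoptosis and repair. Gls2, the liver glutaminase, had 10380, 14400 and 10890 in LP+/+ and 9688 and 7404 in LPfl/+ (log2 fold change -0.47, standard error 0.18). Aldh4a1, of proline breakdown, had 4320, 4953 and 4616 against 3909 and 3745 (log2 fold change -0.27, standard error 0.12). In both genes the LPfl/+ livers were the lowest of the 5, and both share exons with another gene, Spryd4 on the opposite strand and Gm21969 on the same strand, so their reads may be divided uncertainly. Ei24, an endoplasmic reticulum protein of apoptosis and autophagy, was lower on average (log2 fold change -0.36, standard error 0.15), but LPfl/+ 2, at 3459, was above LP+/+ 1, at 3437. Rev3l, the catalytic subunit of the translesion polymerase zeta, was the one member with a p below 0.05 in the other direction, with 1112, 986 and 927 in LP+/+ and 1219 and 1311 in LPfl/+ (log2 fold change 0.34, standard error 0.11).

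Over the 4 lists of p53 feedback, arrest and repair, apoptosis and metabolic targets, 67 of 71 genes were tested and 43 were lower. At a p below 0.05, 7 were lower and 1 was higher, where 2.67% and 4.22% of all genes were. On the scale of counts relative to TMM-scaled library size (CPM), the LPfl/+ livers lay below the control range for 16 of the 67 and above it for 7, where 12.4% and 12.6% of all genes tested did so, and the median log2 fold change was -0.09 beside -0.0010 for all genes. A list is said here to lean where its median lies at least 0.15 from that of all genes and at least 75% of its tested members lie on that side. By this rule of size, which is no test, only the metabolic list leaned (13 of 16 lower, median -0.15, with -0.23 against LP+/+ 1 and -0.19 against LP+/+ 2 and 3). Tsc2, a brake on mTORC1, contributed to it with 1474, 1430 and 1568 in LP+/+ and 1125 and 1233 in LPfl/+, without overlap (log2 fold change -0.33, standard error 0.15).

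Many established targets did not follow Cdkn1a. Mdm2 had 1049, 1066 and 997 in LP+/+ and 868 and 1124 in LPfl/+, and the LPfl/+ livers lay on either side of the controls. Bbc3, which encodes the apoptosis inducer PUMA, had 104, 86.4 and 65.9 against 99.3 and 73.7, within the control range, and Fas, the death receptor gene, had 485, 613 and 591 against 531 and 563, also within it. Bax, the pore-forming effector, was lower in LPfl/+ 2 (109) than in LPfl/+ 1 (161), where the controls were all near 166 (log2 fold change -0.29, standard error 0.23). Zmat3, an RNA-binding p53 target, was closer to Cdkn1a, at 200, 243 and 210 in LP+/+ and 130 and 170 in LPfl/+ (log2 fold change -0.53, standard error 0.25). Ppm1d, a phosphatase that opposes p53 signalling, stood the other way, at 221, 209 and 160 against 235 and 243 (log2 fold change 0.29, standard error 0.16).

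**Figure D2:**
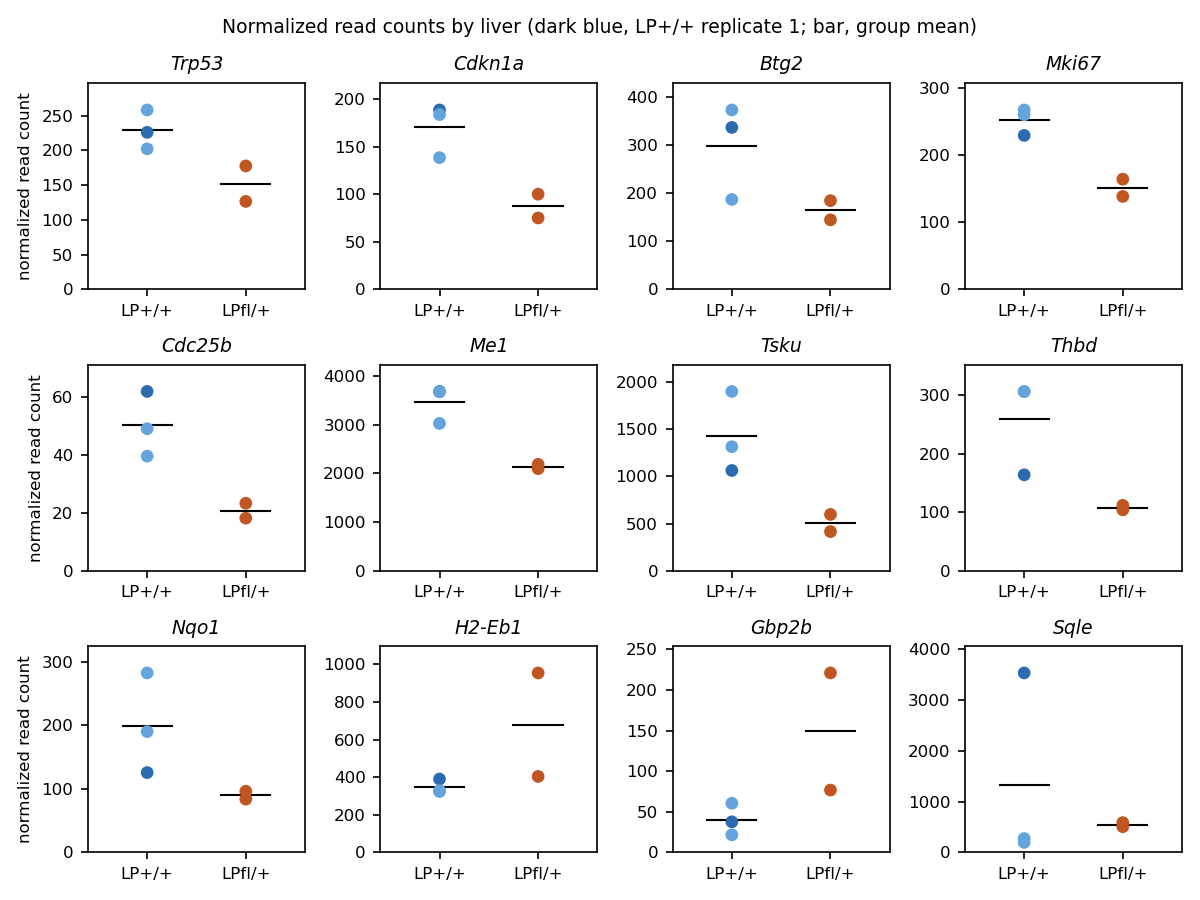
Normalized read counts (y axis, from 0) of 12 genes in each LP+/+ liver (blue, replicate 1 darker) and LPfl/+ liver (orange), with bars at the group means. Trp53, Cdkn1a, Mki67, Cdc25b and Me1 do not overlap between the groups, whereas H2-Eb1 is high mainly in LPfl/+ 1 and Sqle mainly in LP+/+ 1.

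Genes of the G2 and M phases were lower in LPfl/+ as a list. Of 40 tested, 34 were lower, 7 of them with a p below 0.05 (2.67% of all genes). The LPfl/+ livers lay below the control range for 16, where 12.4% of all genes tested did so. The median log2 fold change was -0.42, with -0.38 against LP+/+ 1 and -0.37 against LP+/+ 2 and 3. The mean level of the list relative to the LP+/+ mean was 0.06, -0.03 and -0.03 in LP+/+ 1 to 3, and -0.42 and -0.37 in LPfl/+, on the log2 CPM scale, so the control livers were close to each other and both LPfl/+ livers lay below them. With any single liver left out, 32 to 35 of the 40 genes were lower and the median stayed between -0.39 and -0.52. In the LP245/+ livers the level of the list was -0.51, -0.36 and -0.06.

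Windows were found for 4 of the 7 lower genes with a p below 0.05, and all 4 are shown because the CHR element, TTTGAA, is where the DREAM complex binds genes of this phase. The windows are from RefSeq (GRCm38.p6) and run from 250 bases before to 50 bases after the annotated start, 5′ to 3′ on the strand of the gene, and capitals mark TTTGAA on the strand shown. They are chr7:135716330-135716629 (- strand) for Mki67, chr15:99651607-99651906 (- strand) for Racgap1, chr8:22185770-22186069 (- strand) for Ckap2 and chr2:131186698-131186997 (+ strand) for Cdc25b, which has no match.
Mki67: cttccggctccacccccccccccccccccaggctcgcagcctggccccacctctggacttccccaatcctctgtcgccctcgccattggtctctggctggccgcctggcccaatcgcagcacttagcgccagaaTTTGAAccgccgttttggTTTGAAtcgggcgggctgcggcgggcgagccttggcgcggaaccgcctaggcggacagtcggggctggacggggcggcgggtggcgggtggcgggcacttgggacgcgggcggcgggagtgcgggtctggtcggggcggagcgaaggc
Racgap1: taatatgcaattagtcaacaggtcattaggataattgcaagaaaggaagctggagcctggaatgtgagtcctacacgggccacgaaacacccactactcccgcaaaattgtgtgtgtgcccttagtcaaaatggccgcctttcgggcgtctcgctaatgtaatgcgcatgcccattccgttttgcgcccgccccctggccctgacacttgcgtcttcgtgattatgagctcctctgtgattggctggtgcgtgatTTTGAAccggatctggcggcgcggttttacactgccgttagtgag
Ckap2: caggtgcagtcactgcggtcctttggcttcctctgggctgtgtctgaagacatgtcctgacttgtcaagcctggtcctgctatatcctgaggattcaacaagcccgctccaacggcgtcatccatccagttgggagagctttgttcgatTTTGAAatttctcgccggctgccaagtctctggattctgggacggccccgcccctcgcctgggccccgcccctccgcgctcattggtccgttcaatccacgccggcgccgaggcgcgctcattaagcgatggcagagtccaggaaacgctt
Cdc25b: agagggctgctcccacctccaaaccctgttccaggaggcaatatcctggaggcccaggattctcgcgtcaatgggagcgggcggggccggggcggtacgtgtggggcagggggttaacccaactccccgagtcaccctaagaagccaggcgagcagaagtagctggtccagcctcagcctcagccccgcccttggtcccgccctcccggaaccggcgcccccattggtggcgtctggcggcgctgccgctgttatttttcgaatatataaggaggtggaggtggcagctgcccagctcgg
On either strand, TTTGAA occurred in 3 of these 4 windows, in 26 of the 36 windows found for the list (72.2%) and in 1403 of the 11174 found for all genes tested (12.6%). CCAAT, the box bound by NF-Y beside the CHR in many of these promoters, also occurred in 26 of the 36 (72.2%) and in 38.5% of all windows. These are matches of letters that the list holds whatever its level in these livers, and binding was not measured. In the route described above p21 keeps such genes low, and here Cdkn1a and the list were both lower in LPfl/+. The part of DREAM in these values was not tested.

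Mki67, which encodes the proliferation marker Ki-67 and holds TTTGAA at a pair of places in its window, had 230, 268 and 261 in LP+/+ and 139 and 165 in LPfl/+. Both LPfl/+ livers were well below the controls, at 60.0% of their mean (log2 fold change -0.73, standard error 0.15, adjusted p = 0.697 by edgeR). Cdc25b, a phosphatase that activates cyclin-dependent kinase 1, had 61.8, 49.0 and 39.5 against 23.3 and 18.2 (log2 fold change -1.26, standard error 0.31), also without overlap, and its exons overlap Spef1 on the opposite strand. Tpx2, a spindle assembly factor, had 50.2, 34.6 and 46.1 against 24.3 and 22.2 (log2 fold change -0.90, standard error 0.29). Racgap1 and Ckap2, of cytokinesis and the spindle, had log2 fold changes of -1.02 (standard error 0.38) and -0.93 (standard error 0.33), Ccna2, a cyclin gene, had -0.64 (standard error 0.25), and Kif20a, a kinesin of cytokinesis, had -0.79 (standard error 0.32). All 4 had LPfl/+ livers below the control range.

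The list was not uniform. Sgo1, the protector of centromeric cohesion, was higher, at 7.73, 7.68 and 7.53 in LP+/+ and 17.2 and 15.2 in LPfl/+, near the low end of what was tested (log2 fold change 1.08, standard error 0.36). Top2a, a topoisomerase of dividing cells, had 107, 145 and 122 against 121 and 114, within the control range. Genes of S phase and DNA replication did not lean (23 of 37 lower, median -0.10), and their medians had opposite signs against LP+/+ 1 (0.08) and LP+/+ 2 and 3 (-0.16). Rrm2, of the ribonucleotide reductase, was lower with 160, 125 and 172 in LP+/+ and 105 and 113 in LPfl/+ (log2 fold change -0.47, standard error 0.19), while Pola1, a subunit of DNA polymerase alpha, was higher with 219, 238 and 213 against 322 and 270 (log2 fold change 0.41, standard error 0.14). Among 10 inhibitors of cyclin-dependent kinases and pocket proteins, only Cdkn1a had a p below 0.05.

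Across the 51 lists examined, 16 leaned lower, 1 leaned higher and 34 did not lean. For 14 of the 17 the median had the same sign against LP+/+ 1 as against LP+/+ 2 and 3, and for the remaining 3, cholesterol synthesis, cytochromes P450 and female-biased genes, the sign depended on which controls were used. For 7 of the 17 the mean level in both LPfl/+ livers lay outside the range of the controls: p53 metabolic targets, G2-M genes, choline and methyl group metabolism, pericentral genes, hepatocyte markers, B cell markers and erythroid markers. For hepatocyte markers the gap was narrow, at -0.064 in LPfl/+ 1 and -0.056 in LP+/+ 1. Such separation was not particular to leaning lists. It also held for lists that did not lean: p53 feedback, p53 apoptosis targets, kinase inhibitors and pocket proteins, nuclear respiratory chain subunits and cytosolic ribosomal proteins. Among all single genes tested, both LPfl/+ livers lay below the control range for 12.4% and above it for 12.6%.

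**Figure D3:**
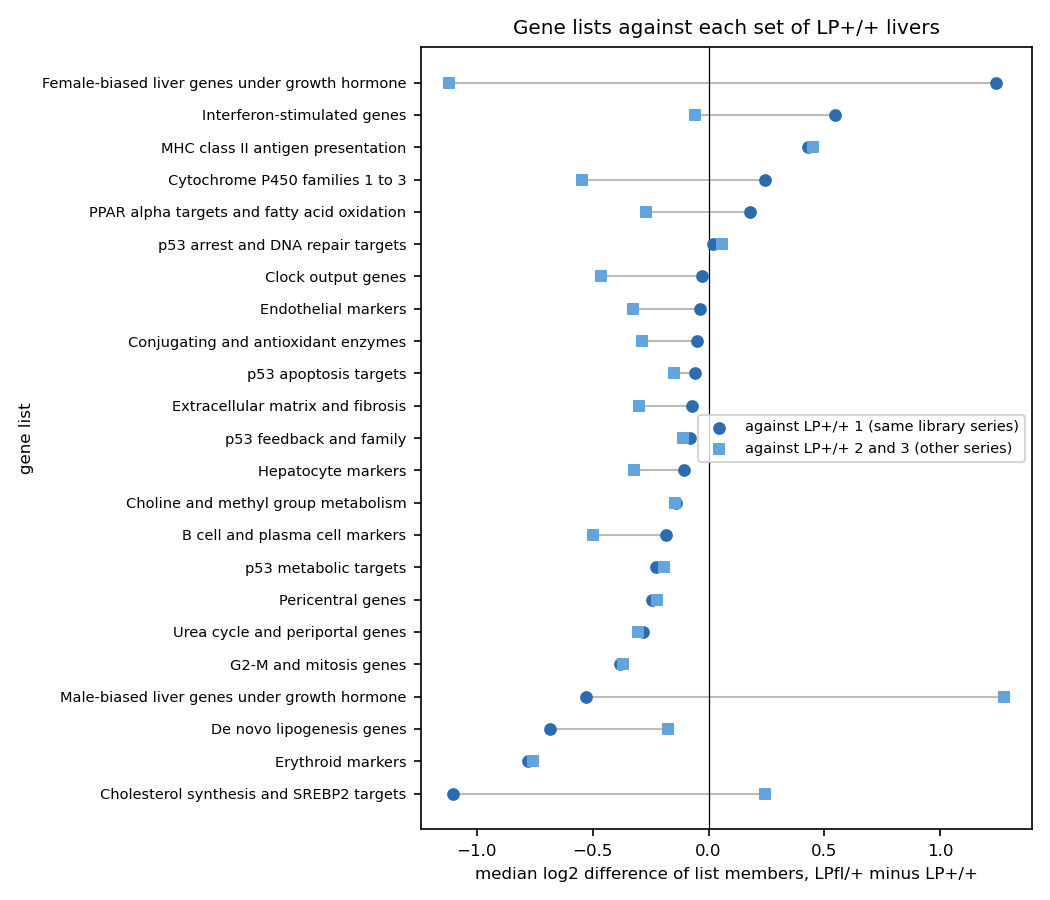
Median log2 difference of the members of each gene list between the LPfl/+ livers and LP+/+ 1 (circles) or LP+/+ 2 and 3 (squares). The points nearly coincide for G2-M genes, erythroid markers and MHC class II, and lie on opposite sides of 0 for cholesterol synthesis, cytochromes P450 and sex-biased genes.

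**Figure D4:**
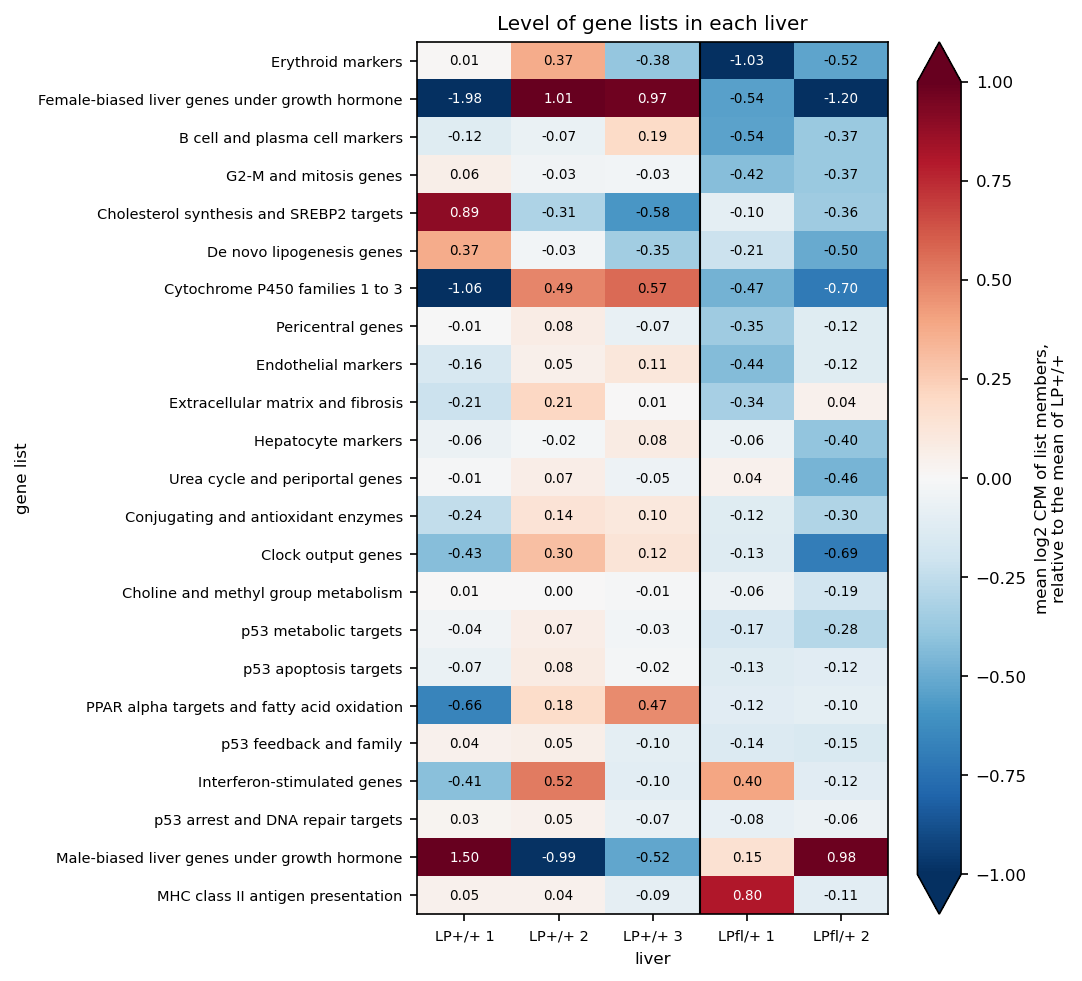
Mean log2 CPM (counts scaled to library size) of the members of each list in each of the 5 livers, relative to the LP+/+ mean (colours end at -1 and 1, and the printed values give the level). LP+/+ 1 stands apart from LP+/+ 2 and 3 for sex-biased genes, cholesterol synthesis and cytochromes P450, while G2-M genes are near 0 in all 3 controls and at -0.42 and -0.37 in LPfl/+.

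Enzymes of fatty acid synthesis, which convert surplus carbohydrate to fat under SREBP-1c and ChREBP, were lower in 19 of 20 cases (median -0.38). Of these, 3 had a p below 0.05, beside 2.67% of all genes that were lower at that p. Me1, the malic enzyme that supplies NADPH, had 3683, 3675 and 3026 in LP+/+ and 2186 and 2098 in LPfl/+. Its LPfl/+ livers agreed closely and lay well below the controls, at 61.9% of their mean (log2 fold change -0.68, standard error 0.12, adjusted p = 0.697 by edgeR). By DESeq2 its adjusted p was 0.00211, but its log2 fold change of -0.69 fell short of the cutoff. Elovl6, the elongase of palmitate, had 3707, 4338 and 2852 against 2441 and 1973 (log2 fold change -0.71, standard error 0.17), and Scd1, the desaturase that makes oleate, had 291100, 241600 and 171400 against 166100 and 110400 (log2 fold change -0.76, standard error 0.24). Both were below the control range, for Scd1 narrowly in LPfl/+ 1. Exons of Me1 and Elovl6 overlap noncoding genes on the opposite strand. The size of the list's difference depended on the control, at -0.69 against LP+/+ 1 and -0.17 against LP+/+ 2 and 3, and without LP+/+ 1 the number lower was 14 of 20.

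Cholesterol synthesis genes, the targets of SREBP2, were lower in all 25 cases when the 3 controls were averaged (median -0.38), but LP+/+ 1 set this average. Sqle, squalene epoxidase, had 3535, 274 and 198 in LP+/+ and 507 and 587 in LPfl/+, so the LPfl/+ livers lay between LP+/+ 1 and the other controls. Against LP+/+ 1, with the library series as a covariate, Sqle passed the cutoff (log2 fold change -2.69, adjusted p = 0.0248 by edgeR), and all 25 genes of the list were lower, 23 with a p below 0.05. The median of the list was -1.10 against LP+/+ 1 and 0.25 against LP+/+ 2 and 3. Without LP+/+ 1, 19 of the 25 were higher in LPfl/+.

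Pericentral genes, expressed around the central vein under Wnt signals, leaned lower in 16 of 18 cases. Their median was -0.26, with -0.24 against LP+/+ 1 and -0.22 against LP+/+ 2 and 3. At a p below 0.05, 5 of them were lower, beside 2.67% of all genes. Glul, the glutamine synthetase that marks the innermost hepatocytes, had 34810, 32180 and 31280 in LP+/+ and 22070 and 28130 in LPfl/+ (log2 fold change -0.38, standard error 0.14). Slc1a2, a glutamate transporter of the same cells, had 4965, 5029 and 4848 against 3665 and 4342 (log2 fold change -0.30, standard error 0.12). In both the controls were close to each other and LPfl/+ 1 was the lowest. Oat, ornithine aminotransferase, had 12890, 26890 and 20450 against 10560 and 11120 (log2 fold change -0.88, standard error 0.27, and -1.12 with adjusted p = 0.0451 by edgeR without LP+/+ 1), a wide control range that LPfl/+ only just left. Axin2, a general Wnt target, did not share this, with 206, 194 and 137 against 143 and 294.

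Urea cycle and periportal genes also leaned lower (17 of 21, median -0.22), chiefly in LPfl/+ 2, where the mean level of the list was -0.46 beside 0.04 in LPfl/+ 1. Got1, the cytosolic aspartate aminotransferase, had 6861, 6620 and 4801 in LP+/+ and 4144 and 2821 in LPfl/+ (log2 fold change -0.80, standard error 0.22), and Ass1, argininosuccinate synthase, had 47180, 57050 and 47420 against 44230 and 30590 (log2 fold change -0.43, standard error 0.17). Choline and methyl group metabolism, which the diet burdens, leaned lower in 18 of 24 cases (median -0.15). Gnmt, the main consumer of methyl groups in liver, had 37870, 47140 and 36760 against 34420 and 25180 (log2 fold change -0.44, standard error 0.17). Mat1a, which makes S-adenosylmethionine, was lower on average (log2 fold change -0.59, standard error 0.23), a difference that came from LP+/+ 2 and 3, since LP+/+ 1, at 69600, lay between the LPfl/+ livers, at 70850 and 61800.

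The hepatokine Fgf21, a secreted signal of nutrient stress, was named after its values were seen. It had 118, 117 and 126 in LP+/+ and 74.0 and 68.7 in LPfl/+, without overlap (log2 fold change -0.75, standard error 0.17), and the difference was similar against LP+/+ 1 (-0.70) and against LP+/+ 2 and 3 (-0.75). Its list of hepatokines and growth factors did not lean (17 of 30 lower, median -0.09).

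Drug-metabolizing and sex-biased genes depended on the control. Female-biased genes, which the male pattern of growth hormone keeps low, were tested for 10 members, 9 of them lower (median -0.78). Cyp2b9, a female-biased P450, had 71.5, 8898 and 8331 in LP+/+ and 1050 and 229 in LPfl/+, so LP+/+ 1 was the lowest and LP+/+ 2 and 3 the highest of the 5. The median was 1.24 against LP+/+ 1 and -1.12 against LP+/+ 2 and 3. Male-biased genes mirrored this, with -0.53 and 1.28, and Moxd1, a monooxygenase-like gene, had 2223 in LP+/+ 1 and at most 39.4 in the other 4 livers, and passed the cutoff with the library series as a covariate (adjusted p = 0.00341 by edgeR). For P450 families 1 to 3, 25 of 30 were lower (median -0.36), with 0.24 against LP+/+ 1 and -0.54 against LP+/+ 2 and 3.

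Within these families Cyp2a5, Nqo1 and Gstm3 lay below every control. Cyp2a5, the coumarin hydroxylase, had 5801, 12630 and 10480 in LP+/+ and 5080 and 3503 in LPfl/+ (log2 fold change -1.16, standard error 0.29, with an adjusted p of 0.0113 by DESeq2 and of 0.0115 by edgeR without LP+/+ 1), and its reads may be shared with close paralogs. Nqo1, a quinone reductase induced by NRF2, had 126, 282 and 190 against 96.2 and 83.8 (log2 fold change -1.14, standard error 0.30, and adjusted p = 0.0414 by edgeR without LP+/+ 1). Gstm3, a glutathione transferase, had 463, 634 and 552 against 319 and 279 (log2 fold change -0.87, standard error 0.19). By DESeq2 its adjusted p was 0.0422, but its log2 fold change of -0.88 fell short of the cutoff. In Cyp2a5 and Nqo1, LP+/+ 1 was much nearer to LPfl/+ than the other controls were. Conjugating and antioxidant enzymes as a list were lower in 23 of 29 cases (median -0.18), with -0.05 against LP+/+ 1 and -0.29 against LP+/+ 2 and 3.

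MHC class II was the one list that leaned higher, in 8 of 10 cases (median 0.51), 5 with a p below 0.05 (4.22% of all genes). The promoters of H2-Eb1 and H2-Aa are shown because the Y box of class II promoters, TGATTGG, is part of the module through which CIITA turns on these genes. The windows are of the kind described above, chr17:34305617-34305916 (+ strand) and chr17:34287774-34288073 (- strand), and capitals mark TGATTGG.
H2-Eb1: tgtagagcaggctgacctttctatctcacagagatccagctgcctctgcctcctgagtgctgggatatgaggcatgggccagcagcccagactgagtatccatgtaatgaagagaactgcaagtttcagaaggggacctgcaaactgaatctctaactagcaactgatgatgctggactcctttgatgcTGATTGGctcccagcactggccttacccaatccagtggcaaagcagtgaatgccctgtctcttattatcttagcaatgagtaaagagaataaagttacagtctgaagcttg
H2-Aa: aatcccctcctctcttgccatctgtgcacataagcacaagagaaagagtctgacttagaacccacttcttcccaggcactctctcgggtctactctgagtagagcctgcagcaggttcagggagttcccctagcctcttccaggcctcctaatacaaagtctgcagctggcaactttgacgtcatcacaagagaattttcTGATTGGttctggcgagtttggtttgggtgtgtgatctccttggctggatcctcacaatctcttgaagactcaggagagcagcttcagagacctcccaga
TGATTGG, which contains CCAAT read on the opposite strand, occurred on either strand in 5 of the 7 windows found for the list (71.4%) and in 1121 of 11174 windows of all genes tested, about 10%.

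The higher level of MHC class II was that of 1 liver. H2-Eb1, the beta chain of I-E, had 390, 324 and 328 in LP+/+ and 954 and 404 in LPfl/+ (log2 fold change 0.98, standard error 0.28, and 1.45 with adjusted p = 0.0426 by edgeR without LPfl/+ 2), so LPfl/+ 2 was barely above LP+/+ 1. H2-Ab1, the beta chain of I-A, had 628, 459 and 461 against 1369 and 558 (log2 fold change 0.91, standard error 0.32), with LPfl/+ 2 inside the control range. Ciita, the transactivator of the class II genes, had 58.0, 64.4 and 71.5 against 113 and 57.6. Without LPfl/+ 1, 7 of the 10 genes were lower and the median was -0.16, and without LPfl/+ 2 it was 0.99. Cxcl9, a chemokine induced by interferon gamma, was also highest in LPfl/+ 1, at 598 beside 220 in LPfl/+ 2 and 133, 294 and 152 in LP+/+.

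Interferon-stimulated genes did not lean (19 of 40 higher, median -0.0028), with 0.55 against LP+/+ 1 and -0.06 against LP+/+ 2 and 3. Tgtp2, an interferon-inducible GTPase, had 62.8, 84.5 and 57.4 in LP+/+ and 201 and 112 in LPfl/+ (log2 fold change 1.20, standard error 0.34). Gbp2b, another interferon-inducible GTPase, had 37.7, 60.5 and 21.6 against 221 and 76.7 (log2 fold change 1.90, standard error 0.46, adjusted p = 0.0488 by DESeq2). In both genes the LPfl/+ livers were above the controls and LPfl/+ 1 was the higher one, and both have close paralogs. The markers of T and NK cells summed to between 133 and 266 normalized counts in LP+/+ and to 237 and 202 in LPfl/+, and those of Kupffer cells and macrophages to between 15506 and 17944 and to 19882 and 15042. Their part in the class II and interferon values was not tested.

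Markers of other cells were also examined. Erythroid genes were lower in 7 of 7 cases (median -0.85, with -0.78 against LP+/+ 1 and -0.76 against LP+/+ 2 and 3). Hba-a1, an alpha globin gene, had 3202, 2820 and 2458 in LP+/+ and 1211 and 1976 in LPfl/+ (log2 fold change -0.82, standard error 0.29), without overlap. The 2 alpha globin genes are nearly identical, so reads may be divided between them arbitrarily. The summed erythroid markers ranged from 13960 to 19623 in LP+/+ and were 9815 and 12774 in LPfl/+, and how much blood each liver held was not measured.

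Endothelial markers, from cells in which Alb-Cre does not act, were lower in 12 of 13 cases (median -0.24), with -0.04 against LP+/+ 1 and -0.33 against LP+/+ 2 and 3. Vwf, the von Willebrand factor gene, had 466, 527 and 559 in LP+/+ and 276 and 380 in LPfl/+ (log2 fold change -0.65, standard error 0.19), and Cdh5, which encodes VE-cadherin, had 1275, 1459 and 1505 against 1034 and 1105 (log2 fold change -0.39, standard error 0.15). Both were below the control range in both LPfl/+ livers. The summed endothelial markers ranged from 26703 to 29877 in LP+/+ and were 19385 and 24982 in LPfl/+. Thbd, the thrombomodulin gene of endothelium, had 164, 306 and 307 against 104 and 112 (log2 fold change -1.25, standard error 0.28, adjusted p = 0.0194 by DESeq2 and 0.0132 by edgeR without LP+/+ 1), with LP+/+ 1 between the other controls and LPfl/+.

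B cell and plasma cell markers were lower in 8 of 10 cases (median -0.54, with -0.18 against LP+/+ 1 and -0.50 against LP+/+ 2 and 3). Cd79b, of the B cell receptor, had 34.8, 49.0 and 34.8 in LP+/+ and 18.2 and 23.2 in LPfl/+ (log2 fold change -0.92, standard error 0.30). Extracellular matrix genes leaned lower in 26 of 34 cases (median -0.23), mostly against LP+/+ 2 and 3, with -0.07 against LP+/+ 1. Col4a2, a basement membrane collagen gene that shares exons with its neighbour Col4a1, had 721, 1064 and 951 against 500 and 688 (log2 fold change -0.61, standard error 0.23). Hepatocyte markers were lower in 12 of 13 cases (median -0.22, with -0.11 against LP+/+ 1 and -0.32 against LP+/+ 2 and 3). They were lower chiefly in LPfl/+ 2, whose mean level was -0.40 beside -0.06 in LPfl/+ 1. The sums of hepatocyte markers were 3306078 and 3036615 in LPfl/+ and between 3112316 and 4426275 in LP+/+. Cholangiocyte markers summed to between 1078 and 1244 in LP+/+ and to 1001 and 1415 in LPfl/+, stellate cell markers to between 19307 and 21028 and to 16924 and 20268, and neutrophil markers to between 117 and 139 and to 157 and 156. Lipid-associated macrophage markers summed to between 7752 and 9909 and to 7594 and 7725, B cell markers to between 12199 and 14741 and to 11029 and 14061, and markers of adipocytes, pancreas and gut to between 990 and 1046 and to 875 and 1091. Of all the markers, Ly6g, Lep, Prss2, Amy2a5, Ins1 and Ins2 were at 0 in all 5 livers, and the part of other cells in the results was not tested.

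Apart from the lists, genes were sought with a mean normalized count of at least 50 over the 5 livers, a p below 0.05 and LPfl/+ livers outside the control range. Loci named only by a clone or locus number were left out before counting. Of the 561 genes that remained, 316 lay below the control range and the others above it, and the 12 with the largest fold change were taken from each side. Tsku, which encodes tsukushi, a protein secreted by the liver, had 1063, 1899 and 1314 in LP+/+ and 416 and 598 in LPfl/+. Both LPfl/+ livers were far below the lowest control, at 35.6% of the LP+/+ mean (log2 fold change -1.48, standard error 0.34), with -1.08 against LP+/+ 1 and -1.65 against LP+/+ 2 and 3, and it passed the cutoff by DESeq2. Acnat2, an acyltransferase of peroxisomes, had 1231, 3412 and 2705 against 1020 and 511 (log2 fold change -1.67, standard error 0.49), with LP+/+ 1 near LPfl/+ 1.

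The lower side also held Armcx4, Cyp26a1, Fbln2 and Hspa1b, beside Thbd, Cyp2a5, Nqo1 and Cdkn1a described above. Hspa1b, an inducible HSP70 gene with a near-identical neighbour, had 42.5, 75.9 and 77.2 in LP+/+ and 39.5 and 27.3 in LPfl/+ (log2 fold change -0.95, standard error 0.32), with LPfl/+ 1 just below LP+/+ 1. Cyp26a1, which breaks down retinoic acid, had 80.2, 239 and 138 against 70.9 and 70.7 (log2 fold change -1.10, standard error 0.48). Fbln2, an extracellular matrix glycoprotein gene, had 81.2, 168 and 131 against 40.5 and 77.8 (log2 fold change -1.09, standard error 0.39). For Armcx4 the difference rested on LP+/+ 2, at 406 beside 95.7 and 93.2 in the other controls and 54.7 and 68.7 in LPfl/+ (log2 fold change -1.67, standard error 0.66). In Cyp26a1, Fbln2 and Hspa1b, LP+/+ 1 was the nearest of the controls to LPfl/+.

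On the higher side, Tcf24, a basic helix-loop-helix gene, was led by 1 liver, with 13.5, 22.1 and 14.1 in LP+/+ and 206 and 34.3 in LPfl/+ (log2 fold change 2.86, standard error 0.67), passed the cutoff by DESeq2, and its exons overlap E330040D14Rik on the opposite strand. Tnfaip8l3, of a lipid transfer protein family, had 7.73, 10.6 and 6.59 against 64.8 and 28.3 (log2 fold change 2.48, standard error 0.42), and passed the cutoff by DESeq2. Adgrf1, an adhesion G protein-coupled receptor gene, had 88.9, 38.4 and 82.8 against 163 and 263 (log2 fold change 1.61, standard error 0.43). In these genes LPfl/+ lay above every control.

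Bmf, which encodes a BH3-only inducer of apoptosis, had 330, 166 and 113 in LP+/+ and 530 and 374 in LPfl/+ (log2 fold change 1.16, standard error 0.40), with LP+/+ 1 nearest to LPfl/+. Fam89a had 108, 230 and 93.2 against 302 and 326 (log2 fold change 1.14, standard error 0.43), and Hsbp1l1 had 33.8, 40.3 and 19.8 against 62.8 and 99.97 (log2 fold change 1.39, standard error 0.40). Gpr21, an orphan receptor gene inside Rabgap1 with which it shares exons, had 33.8, 29.8 and 41.4 against 68.9 and 77.8 (log2 fold change 1.07, standard error 0.29). These last 3 genes had similar differences against both sets of controls, of 1.53 and 1.10, 1.19 and 1.43, and 1.08 and 1.03. Mup12, a major urinary protein gene whose reads cannot be placed with certainty among its paralogs, spread from 215 to 1560 in LP+/+ and was 3520 and 9792 in LPfl/+ (log2 fold change 2.72, standard error 1.08). Lad1, an anchoring filament protein gene, and the neighbouring pseudogenes Obox4-ps2 and Nlrp5-ps had log2 fold changes of 1.31, 1.30 and 1.24. Without LP+/+ 1, Lad1 reached 2.30 (adjusted p = 0.0184 by edgeR), and Nlrp5-ps also passed. For Lad1 and Obox4-ps2, LPfl/+ 1 and LP+/+ 1 were nearly equal, at 161.1 and 161.4 and at 123.6 and 123.7, and only the CPM scale placed both LPfl/+ livers above the controls. The DESeq2 calls also held Gm37589, with 115, 106 and 87.5 against 249 and 220.1, Gm37769, with 71.5, 37.5 and 55.5 against 165 and 142, and Gm42047, with 342, 1278 and 958 against 124 and 161. Gm37589 and Gm42047 passed by edgeR as well when LP+/+ 1 was left out.

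Gm37589 and Gm37769 belong to a class of the GENCODE M21 annotation, TEC, which collects loci still awaiting experimental proof of a transcript, and that class as a whole was higher in LPfl/+. Of 765 TEC loci tested, 642 were higher (median 0.44), 151 with a p below 0.05 beside 3 lower. Among 13314 protein-coding genes, 5924 were higher (median -0.03), with 341 higher and 407 lower at that p. Sense-intronic loci had a median of 0.53 (86 of 106 higher), snoRNA genes of 0.32 (62 of 78) and antisense genes of 0.26 (428 of 617). The medians for TEC and sense-intronic loci were 0.33 and 0.35 against LP+/+ 1 and 0.49 and 0.58 against LP+/+ 2 and 3, and LP+/+ 1 was itself above LP+/+ 2 and 3 by 0.17 and 0.14.

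Most of the TEC loci lay within an intron of another gene on the same strand (489 of 765, 63.9%), and these had a median of 0.49 beside 0.33 for the 160 outside or partly outside genes. The share of all counts in TEC loci was 0.1%, 0.0837% and 0.0907% in LP+/+ and 0.127% and 0.128% in LPfl/+, and ranged from 0.101% to 0.129% in LP245/+. Mitochondrial ribosomal RNA, which a total RNA library removes in part, took 4.45%, 4.38% and 3.72% of the counts in LP+/+ and 6.89% and 5.25% in LPfl/+, and protein-coding genes took 92.9%, 93.6% and 94% against 90.5% and 91.7%. Both shares stood apart between the LPfl/+ and LP+/+ livers. In LP245/+, mitochondrial ribosomal RNA took 5.64%, 4.96% and 7.25%, and protein-coding genes took 91.1%, 92.6% and 90.4%, so higher and lower shares were not particular to LPfl/+. The part of these shares in the values of the noncoding classes was not tested.

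**Figure D5:**
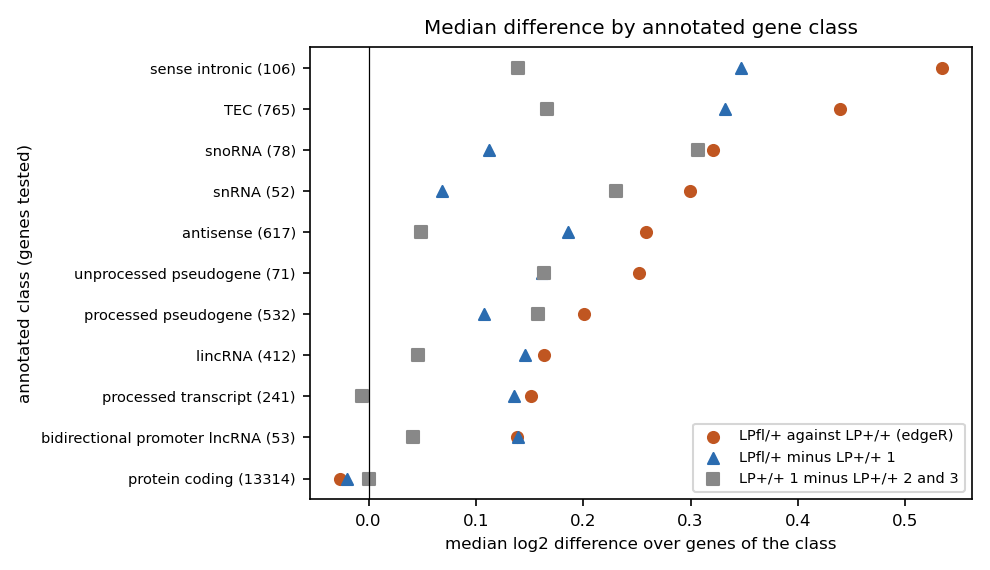
Median log2 difference over the tested genes of each annotated class (number tested in brackets), for LPfl/+ against LP+/+ by edgeR (circles), LPfl/+ minus LP+/+ 1 (triangles) and LP+/+ 1 minus LP+/+ 2 and 3 (squares). Sense-intronic and TEC loci lie near 0.5, while protein-coding genes lie at -0.03.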

How the data were processed

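Stranded total RNA libraries of whole liver were sequenced as paired-end reads. The authors deposited raw read counts per gene, made by alignment to GRCm38 with STAR and summarized by STAR on a GENCODE annotation, with no normalization. The release of that annotation is not given in the sources used here, so GENCODE M21 supplied the symbols, classes and positions used here, and 49326 of the 49585 genes listed matched a symbol. Each count column named 1 labelled sample, and 0 columns were left over. Library totals in all 8 livers lay between 26304526 and 31370714, and the floor of 3 counts covers counting error only. No pair of libraries agreed within sampling noise.

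All 8 livers were fitted together, with one coefficient per genotype, by the quasi-likelihood F test of edgeR 4.0.16 after TMM scaling and filterByExpr (R 4.3.3, limma 3.58.1). Benjamini-Hochberg adjustment covered the 16496 genes that were tested. The adjusted p-values and standard errors in the results come from this edgeR fit unless DESeq2 (1.42.0) is named, and a p below 0.05 in a count of genes is unadjusted. Differences against LP+/+ 1 or LP+/+ 2 and 3 are differences of mean log2 CPM with a prior count of 2 and carry no test. Promoter windows were matched by symbol for 11174 of the genes tested. Plots were made in matplotlib 3.10.9 (Python 3.11.15). The method was tested on simulated counts of 16065 genes, with the same spread for every gene and no difference between the series. In these, 2 unchanged genes were called and 0 were called with no difference simulated.

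The livers compared and the gene lists were chosen with earlier results of these data known. Genes were named by rule: Trp53, Cdkn1a and p53 targets with an unadjusted p below 0.05, the 12 largest differences on each side among genes with a mean normalized count of at least 50 and separate ranges, genes past the cutoff by either tool, and up to 3 members of each leaning list with the smallest p. Other members are given to describe their list, and a few genes that met the rule are not reported here. Alternatives were DESeq2, its size factors, no filter or a minimum of 10 counts in each liver, a fit of the 5 livers compared, the library series as a covariate, the replicate number as a block, each liver left out, no fold cutoff, and protein-coding genes only, the last chosen after seeing the data. The labels do not say whether replicate numbers mark shared animals or litters, and livers were treated as unpaired.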

Additional observations from a re-analysis of the deposited data

How the results depend on the processing

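The number of genes past the cutoff was 0 by edgeR, with 1137 at an unadjusted p below 0.05. It was 9 with DESeq2, 14 with no filter on low counts and 3 with the library series as a covariate, and it ranged from 0 to 59 with each liver left out, 59 without LP+/+ 1 and 2 without LPfl/+ 2 (H2-Eb1 and Eif3j2). It stayed at 0 under the other alternatives run, among them the replicate block, the 5 livers alone, the stricter filter and protein-coding genes only. With each liver left out, the genes at an unadjusted p below 0.05 ranged from 434 to 1122 higher and from 270 to 781 lower, with the fewest without LP+/+ 2 and the most without LP+/+ 1, and 459 were higher without LPfl/+ 2. With protein-coding genes only, 390 were higher, and with no filter 664 were lower. Trp53 and Cdkn1a kept their direction under every alternative, and their adjusted p stayed above 0.05 in each.

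With the library series as a covariate, log2 fold changes turned from lower to higher for Cyp2b13 (0.98), Cyp2a22 (2.20), Hao2 (4.43) and Por (0.0079). Without LP+/+ 1, these genes passed the cutoff by edgeR as lower. The list medians also turned to higher with the series as a covariate for P450 families 1 to 3 (0.29), female-biased genes (1.32) and clock output genes (0.0079). With each liver left out, the median of cholesterol synthesis ranged from -0.61 to 0.25, the latter without LP+/+ 1, and was -1.10 with the series as a covariate, and that of MHC class II from -0.16, without LPfl/+ 1, to 0.99, without LPfl/+ 2. With the series as a covariate, the difference rests on the 2 LPfl/+ livers against LP+/+ 1 alone. The causes were not tested.

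Livers with the same replicate number did not deviate together (correlations between -0.08 and 0.03). The deviations of the LPfl/+ livers from their mean mirror each other, so this cannot exclude shared litters. The replicate block left 0 genes past the cutoff, with a smallest adjusted p of 0.795. Of 100 simulated 2-fold changes, 53 were recovered by adjusted p and 44 by adjusted p and fold cutoff together, and no smaller fold was simulated. The CPM of genes at the floor and the reads of near-identical paralogs are the least certain values.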

Other observations

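Heat shock chaperones, which the results above do not describe as a list, were lower in LPfl/+ for 19 of 22 members (median log2 fold change -0.14), 4 with an unadjusted p below 0.05 (2.67% of all genes). The list did not lean by the rule used above, since its median lay within 0.15 of that of all genes, and the control and LPfl/+ levels overlapped. Bag3, a co-chaperone of HSP70, had normalized read counts of 431, 677 and 475 in LP+/+ and 314 and 340.3 in LPfl/+ (log2 fold change -0.68, standard error 0.23), and Dnajb1, an HSP40 gene, had 584, 714 and 635 against 493 and 459 (log2 fold change -0.43, standard error 0.16). Both LPfl/+ livers were below the controls in these genes. Nuclear genes of the respiratory chain were lower in 43 of 44 cases, by a median of -0.09 only, and cytosolic ribosomal protein genes were higher in 40 of 53 cases, by a median of 0.04.

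The acute phase gene Saa1 had 707, 941 and 404 in LP+/+ and 1258 and 992 in LPfl/+ (log2 fold change 0.73, standard error 0.27), although its list did not lean (11 of 24 higher, median -0.02). Bmp4, a growth factor gene, had 127, 71.1 and 64.0 against 148 and 198 with LP+/+ 1 nearest to LPfl/+, and Inhba, which encodes the activin A subunit, had 155, 98.9 and 118 against 170.2 and 214 (log2 fold change 0.64, standard error 0.28). Gadd45g, a stress-induced growth arrest gene, had 495, 65.3 and 98.8 against 414 and 876, so that LP+/+ 1 lay between the LPfl/+ livers while LP+/+ 2 and 3 were far below them, and it passed the cutoff by edgeR without LP+/+ 1 (adjusted p = 0.0104). These genes were chosen after their values were seen.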
